A study of Mus musculus with 7 samples.

Results

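The second culture stage of neural crest-derived cells purified from the mouse small bowel was described with 2 of the 7 libraries of the series. M2 neurospheres are the cells after that stage, and tdTomato-positive cells of heterogenous spheroids (positive spheroid cells) are the population at the end of the first stage. Of the 27179 genes tabulated, the 13432 with at least 1 CPM (a read count divided by the total of its library and set to a common scale) in either of these libraries were compared.

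All libraries came from Wnt1-tdT mice, made by crossing Wnt1-Cre with R26R-tdT reporter mice, in which Cre recombinase driven by the Wnt1 promoter switches on tdTomato, a red fluorescent protein that then marks neural crest cells and their descendants. For M2 neurospheres, cells digested from the muscle layer of the small bowel with its myenteric plexus were grown for 10 days as heterogenous spheroids, tdTomato-positive cells were sorted from them, and the sorted cells were grown alone for 10 further days. The positive spheroid cells were taken for RNA after that sort, with 10 days of culture. The medium, the same in both stages, contained EGF, basic FGF and heparin, which keep such progenitors dividing. Each library was a pool of about 50000 cells from 3 mice aged 1 month, 2 female and 1 male. The other bowel libraries, given beside some results, were M1 neurospheres (tdTomato-positive cells sorted from fresh tissue and grown for 10 days), the tdTomato-negative cells of the same kind of spheroid, and tdTomato-positive primary cells sorted from fresh tissue. Neurospheres and primary cells from subcutaneous fat completed the series.

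M2 neurospheres differ from positive spheroid cells in more than the 10 days of added culture. They grew without the tdTomato-negative cells, and their labels name no sort between the culture and RNA isolation, whereas the spheroid cells were sorted just before. Whether both came from the same pool of mice is not stated in the labels. These differences coincide in these 2 libraries and cannot be told apart. With 1 library per group there is no replicate check and no test, and the 95% intervals describe counting error alone. Log2 ratios are M2 neurospheres over positive spheroid cells on scaled reads. Higher and lower are used of M2 neurospheres where such a ratio was at least 2 on either side of 0 (4-fold) with its interval wholly beyond 2-fold.

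The neural crest gives rise to the neurons and glia of the gut wall, the enteric nervous system. Its progenitors depend on the transcription factor Sox10 and on Ret, the receptor of the glial cell line-derived neurotrophic factor GDNF. Cells of this kind taken from the postnatal gut, most of them glia-like, divide in such a medium as floating clusters called neurospheres and can give rise to both neurons and glia.

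By this rule 413 genes (3.07% of those measured) were higher and 519 (3.86%) lower in M2 neurospheres, while 10781 genes (80.3%) lay within 2-fold and the median log2 ratio of all genes was -0.02. The higher genes held 1.31% of the reads of M2 neurospheres and 0.191% of those of positive spheroid cells. The lower genes held 0.705% of the reads of M2 neurospheres and 4.20% of those of positive spheroid cells. The libraries held 65301500 reads in M2 neurospheres and 64619332 in positive spheroid cells, so that 1 read was worth about 0.015 CPM in both. Sox10 had 661 CPM in M2 neurospheres and 899.6 CPM in positive spheroid cells, against 5.23 CPM in the tdTomato-negative cells, and Gfap, a glial filament gene, had 4.76 CPM in those tdTomato-negative cells. Both compared libraries therefore carried the markers of their labelled origin.

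**Figure D1:**
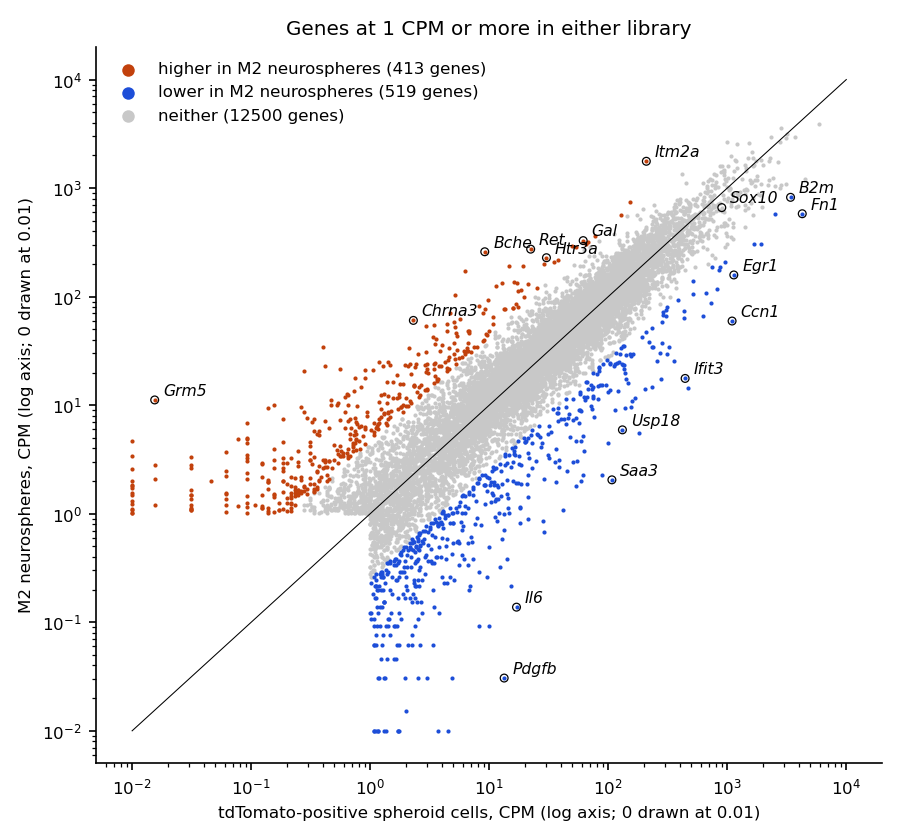
CPM of each of the 13432 genes measured, in M2 neurospheres (vertical log axis) and positive spheroid cells (horizontal log axis), with genes at 0 drawn at 0.01 and the line of equal CPM. Genes that passed the size rule are coloured (413 higher, 519 lower), and the circled genes are named in the text.

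Interferon response genes had the lowest median of all lists. Of 18 measured, 15 were lower and 0 higher, and all 18 had a log2 ratio below 0 (median -3.22). Interferons are antiviral signalling proteins whose receptors act through transcription factors, Stat2 and Irf9 among them, that bind the interferon-stimulated response element of the genes it turns on. This element was searched as GAAA, NN and GAAA in an unbroken row, with N for any base, on both strands in RefSeq promoters (250 bases before to 50 after each start site, GRCm38.p6). It was found in 9 of the 14 list members with a promoter entry, against 1079 of the 27025 genes with a promoter entry (3.99%) and 1131 of 32851 single promoters (3.44%). In the list of antigen presentation and complement genes it was found in 2 of 13 members with a promoter entry, B2m and Saa3. The stretches below show where it lies upstream of 5 interferon response genes and of B2m, the light chain of class I antigen-presenting molecules. They run 5′ to 3′ along the gene's strand, and matched bases, which can overlap between matches, are in capitals.
Ifit1, chr19:34640765-34640833, plus strand: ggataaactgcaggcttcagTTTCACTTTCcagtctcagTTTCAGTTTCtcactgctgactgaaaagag
Ifit3, chr19:34583353-34583436, plus strand: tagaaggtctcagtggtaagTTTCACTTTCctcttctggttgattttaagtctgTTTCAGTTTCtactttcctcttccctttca
Isg15, chr4:156200855-156200916, minus strand: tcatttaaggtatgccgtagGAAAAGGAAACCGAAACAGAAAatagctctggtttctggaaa
Rsad2, chr12:26456543-26456592, minus strand: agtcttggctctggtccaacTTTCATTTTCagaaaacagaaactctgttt
Gbp2, chr3:142620584-142620633, plus strand: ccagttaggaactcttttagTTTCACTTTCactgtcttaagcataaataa
B2m, chr2:122147528-122147577, plus strand: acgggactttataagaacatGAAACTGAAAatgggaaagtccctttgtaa

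Over the whole comparison, the element was in the promoter of 54 of the 337 lower genes with a promoter entry (16.0%), of 13 of 297 higher genes (4.38%) and of 316 of 9775 genes called in neither direction (3.23%). A match is a description of these letters and not of binding. In the promoters printed above, Isg15 holds 3 overlapping matches and Ifit1 and Ifit3 hold 2 each.

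Ifit3, which encodes an antiviral tetratricopeptide repeat protein, had 17.6 CPM in M2 neurospheres and 443 CPM in positive spheroid cells (log2 ratio -4.76, interval -4.85 to -4.68). Usp18, the protease that removes Isg15 from proteins, had 5.93 CPM in M2 neurospheres against 132 CPM in positive spheroid cells (log2 ratio -4.58). The signalling factors were lower as well. Stat2 had 15.2 CPM in M2 neurospheres against 95.3 CPM in positive spheroid cells (log2 ratio -2.76), and Irf7, the factor that amplifies the response, had 3.08 CPM in M2 neurospheres against 54.2 CPM in positive spheroid cells (log2 ratio -4.24). Oas1a, a sensor of double-stranded RNA, had 0.858 CPM in M2 neurospheres against 28.3 CPM in positive spheroid cells (log2 ratio -5.11) and was among the 15 lowest ratios of genes that reached 10 CPM in either library. So were Ifi27l2a, an interferon-induced gene with 14.3 CPM in M2 neurospheres against 469 CPM in positive spheroid cells (log2 ratio -5.15), and Zbp1, a sensor of nucleic acids, with 1.79 CPM in M2 neurospheres against 53.1 CPM in positive spheroid cells (log2 ratio -4.98). The members not called were Irf1 (log2 ratio -0.61), Gbp2 (log2 ratio -1.15) and Ifit2, which had 97.1 CPM in M2 neurospheres against 114 CPM in positive spheroid cells (log2 ratio -0.34). Of the 6 measured genes of the Ifit family, gathered after values were seen, 3 (Ifit1, Ifit3 and Ifit3b) were lower and 1, Ifit1bl1, was higher with 2.07 CPM in M2 neurospheres against 0.449 CPM in positive spheroid cells (log2 ratio 2.02).

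Genes of class I antigen presentation were lower as well. B2m had 822 CPM in M2 neurospheres against 3402 CPM in positive spheroid cells (log2 ratio -2.16), and the heavy chains H2-D1 and H2-K1 had 308 and 208 CPM in M2 neurospheres against 1908 and 954 CPM in positive spheroid cells (log2 ratios -2.74 and -2.31). The peptide transporter Tap1 and the immunoproteasome subunits Psmb8 and Psmb9 were lower too (log2 ratios -2.38, -2.42 and -2.33). The class II genes of the same list were not called, with H2-Ab1 at 13.2 CPM in M2 neurospheres and 14 CPM in positive spheroid cells (log2 ratio -0.19). In all, 11 of 18 antigen presentation and complement genes were lower and 0 higher (median -2.18). In 3 other gene families picked after their values were seen, 9 of 13 class I H2 genes, 4 of 6 Oas genes and 4 of 7 guanylate-binding protein genes were lower. The guanylate-binding protein gene Gbp11 was higher, with 2.65 CPM in M2 neurospheres against 0.402 CPM in positive spheroid cells. Members of these families, and Ifit3 with Ifit3b, are similar in sequence and can share or lose reads.

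Beside the other bowel libraries, the positive spheroid cells had the highest summed level of the interferon list. It was 351 CPM in M2 neurospheres and 2115 CPM in positive spheroid cells, with 527 CPM in M1 neurospheres, 807 CPM in the tdTomato-negative cells of the spheroids and 1131 CPM in bowel primary cells. Ifit3 had 14.5 CPM in the tdTomato-negative cells, below the 17.6 CPM of M2 neurospheres. M2 neurospheres had the lowest value of the 5 bowel libraries for Stat2, Irf7, Ifit1, Isg15, Usp18, Oas1a, Oasl2, Mx2, Rsad2, Ifi44 and Bst2.

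**Figure D2:**
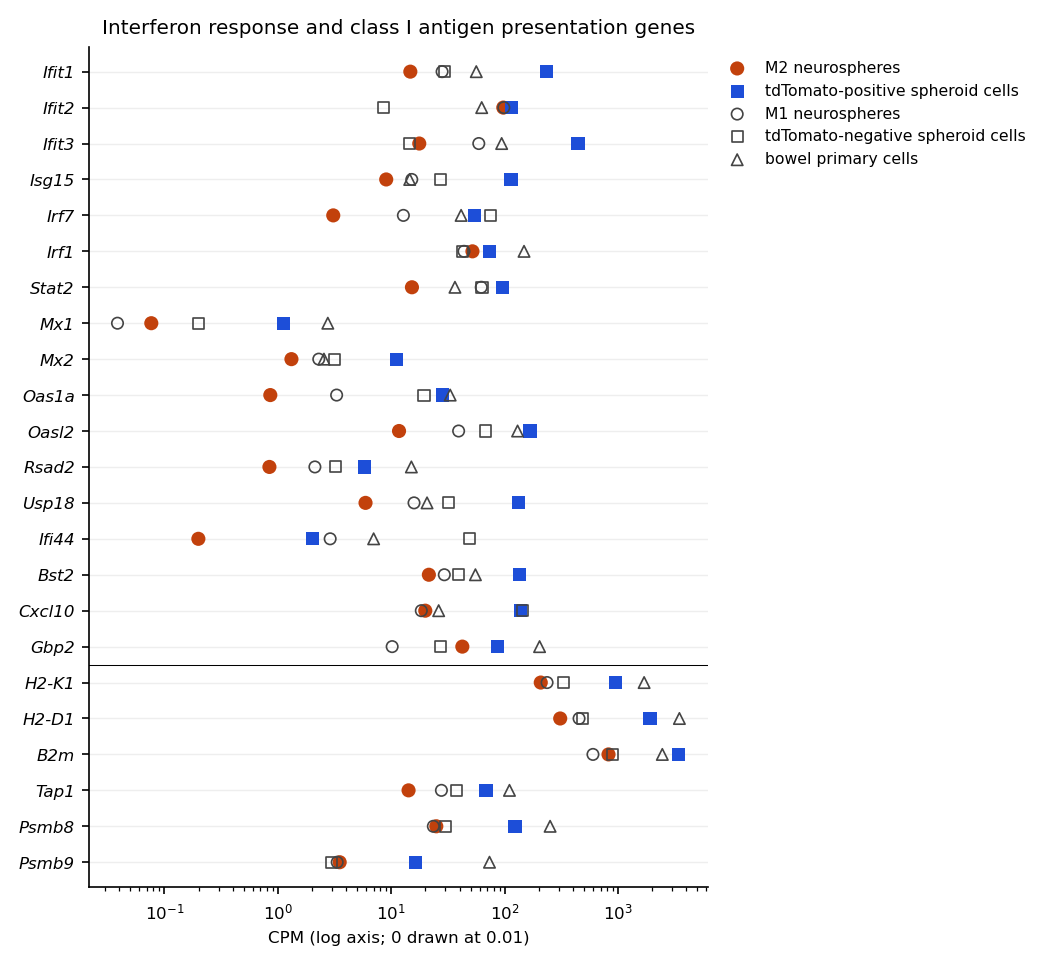
CPM on a log axis of 17 of the 18 interferon response genes and, under the line, of 6 genes of class I antigen presentation, in the 5 bowel libraries. Filled circles (M2 neurospheres) lie left of filled squares (positive spheroid cells) for every gene, with Ifit3 at 17.6 and 443 CPM.

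Immediate early genes are switched on within minutes by growth factors, calcium or stress. Of 17 measured, 8 were lower in M2 neurospheres and 0 higher, and all 17 had a log2 ratio below 0 (median -1.90). The zinc finger factor Egr1 had 158 CPM in M2 neurospheres against 1135 CPM in positive spheroid cells (log2 ratio -2.95, interval -2.98 to -2.92), and Egr2 had 2.97 CPM in M2 neurospheres against 35.9 CPM in positive spheroid cells (log2 ratio -3.69). Of the AP-1 genes, Fosb had 13.4 CPM in M2 neurospheres against 120.0 CPM in positive spheroid cells (log2 ratio -3.27) and Junb had 106 CPM in M2 neurospheres against 514 CPM in positive spheroid cells (log2 ratio -2.39). Fos itself, with 673 CPM in M2 neurospheres against 1953 CPM in positive spheroid cells (log2 ratio -1.65), did not reach 4-fold. Atf3, a stress-induced member of the list, had 581 CPM in M2 neurospheres and 625 CPM in positive spheroid cells (log2 ratio -0.22). Ccn1 and Ccn2, secreted matrix proteins that are targets of mechanical and serum signals, were lower too. Ccn1 had 59.6 CPM in M2 neurospheres against 1098 CPM in positive spheroid cells (log2 ratio -4.31), and Ccn2, which was picked after its values were seen, had 34.3 CPM in M2 neurospheres against 324 CPM in positive spheroid cells (log2 ratio -3.35).

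The libraries also fell into 2 kinds by how they were collected. Per the labels, 4 of the 7 libraries were of cells collected by sorting (both spheroid fractions and both primary groups) and 3 were of neurospheres taken after culture (M2, M1 and those of fat). Egr1 had 158, 115 and 42.8 CPM in M2, M1 and adipose neurospheres. It had 1135 and 1619.6 CPM in tdTomato-positive and tdTomato-negative spheroid cells and 1144 and 4698 CPM in bowel and adipose primary cells. On TMM-scaled reads, all 3 neurosphere libraries lay below all 4 sorted ones for 10 of the 17 measured immediate early genes, 13 of the 18 interferon response genes and the 6 class I genes named above. Over all genes measured that was so for 587 (4.37%), and among the 519 genes lower in M2 neurospheres for 179 (34.5%). The opposite order, with all 3 neurosphere libraries above all 4 sorted ones, held for 575 genes measured (4.28%) and for 10 of the 413 genes higher in M2 neurospheres (2.42%). It held for 11 of 28 cell cycle genes and 6 of 24 cholesterol synthesis genes. The compared libraries are among the 7 counted here, so these counts restate in part their own ratios. For the immediate early, interferon and class I genes, the sort, the time in culture and the other cells of the spheroid cannot be told apart. Hspa1a and Hspa1b, near-identical heat shock genes, had 6.42 and 6.2 CPM in M2 neurospheres against 26.3 and 18.3 CPM in positive spheroid cells (log2 ratios -2.14 and -1.67). Hspa1a was the single member of 13 heat shock genes called (median -0.17).

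**Figure D3:**
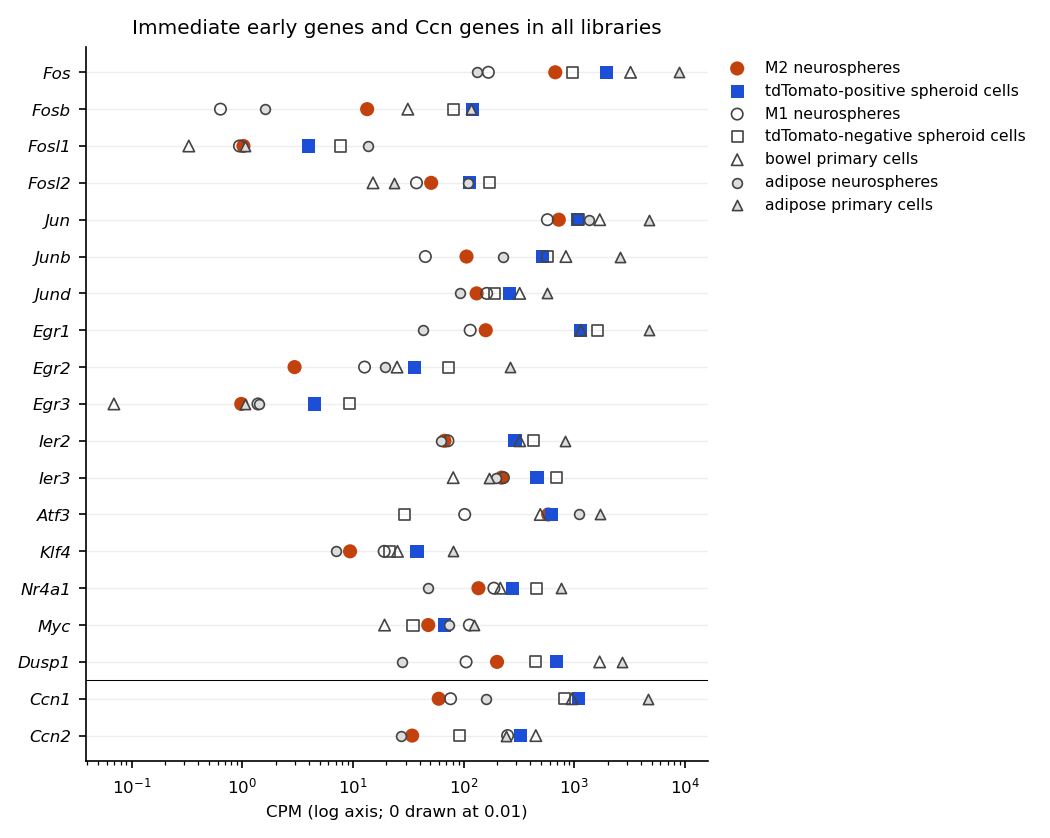
CPM on a log axis of the 17 immediate early genes and, under the line, Ccn1 and Ccn2, in all 7 libraries. Circles are neurospheres, and squares and triangles are cells collected by sorting; Egr1 lay between 42.8 and 158 CPM in neurospheres and between 1135 and 4698 CPM in sorted cells.

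Matrix and inflammatory genes were among the lowest ratios in M2 neurospheres. Of 17 fibroblast and matrix genes, 9 were lower and 0 higher (median -2.01). Fn1, which encodes fibronectin, showed the largest fall in CPM of the comparison, with 581 CPM in M2 neurospheres against 4266 CPM in positive spheroid cells (log2 ratio -2.99). Dcn, the proteoglycan decorin of fibroblasts, had 11 CPM in M2 neurospheres against 157 CPM in positive spheroid cells (log2 ratio -3.94). Other genes among the 10 largest falls in CPM of called genes were Tgfbi (log2 ratio -2.57) and Thbs2 (log2 ratio -2.92), both matrix proteins, the protease Adamts1 (log2 ratio -2.25) and Igfbp7 (log2 ratio -2.34), a binding protein of insulin-like growth factors. Il6, an inflammatory cytokine, had 0.138 CPM in M2 neurospheres against 17 CPM in positive spheroid cells (log2 ratio -6.76, interval -8.19 to -6.13). The acute phase genes Saa3 and Lcn2 had 2.05 and 1.99 CPM in M2 neurospheres against 107 and 58.8 CPM in positive spheroid cells (log2 ratios -5.80 and -4.97). Mmp9, a gelatinase, and Thbs1, a matrix glycoprotein, had 5.53 and 2.3 CPM in M2 neurospheres against 181 and 88.6 CPM in positive spheroid cells (log2 ratios -5.14 and -5.36).

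Many of these transcripts were far more abundant in the tdTomato-negative cells of the spheroids. Those cells had 22972 CPM of Fn1, 15546 of Mmp9, 6224 of Saa3, 6151 of Thbs1, 7124 of Dcn, 1463 of Lcn2 and 334 of Il6. The summed level of the fibroblast and matrix list was 3085 CPM in M2 neurospheres, 9577 CPM in positive spheroid cells and 53440.0 CPM in tdTomato-negative cells, with no measured member at 0 in either compared library. In bulk RNA, fewer cells of a type and less RNA per cell cannot be told apart, and the part of other cells or their RNA in these falls was not tested. Pdgfb, a growth factor ligand, and Adamts1 were different, with 0.448 and 134 CPM in tdTomato-negative cells. Pdgfb had 2 reads in M2 neurospheres against 863 in positive spheroid cells (log2 ratio -7.85, interval -11.93 to -7.02). This was the lowest ratio of named genes that reached 10 CPM in either library. Other genes among the 15 lowest ratios of genes that reached 10 CPM were Clu (log2 ratio -6.06), Thbs4 (log2 ratio -5.48), Ctla2a (log2 ratio -5.36), Il33 (log2 ratio -5.20) and Spon2 (log2 ratio -4.87), and all 5 had more CPM in tdTomato-negative than in positive spheroid cells. Of 14 genes of nuclear factor kappa B feedback and its cytokine targets, picked after their values were seen, 10 were lower. Nfkbia, the inhibitor that shuts the pathway off, had 187 CPM in M2 neurospheres against 749.8 CPM in positive spheroid cells (log2 ratio -2.12), and Cxcl2, a neutrophil chemokine, had 2.5 CPM in M2 neurospheres against 45.3 CPM in positive spheroid cells (log2 ratio -4.28).

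Ret and a set of genes of the neuronal lineage were higher in M2 neurospheres. Ret had 274 CPM in M2 neurospheres and 22.3 CPM in positive spheroid cells (Entrez 19713; GRCm38 chr6:118151748-118197744; log2 ratio 3.50, interval 3.43 to 3.58), which made it 11.3-fold higher on scaled reads. Of 10 measured neurogenic transcription factors 5 were higher and 0 lower (median 1.93). Insm1, a zinc finger factor of newborn neurons and endocrine cells, had 10.5 CPM in M2 neurospheres against 0.542 CPM in positive spheroid cells (log2 ratio 4.09). Etv1 (log2 ratio 2.66) and Tlx2 (log2 ratio 2.58) were also higher. Myt1, a zinc finger factor of neurogenesis, had 168 reads in M2 neurospheres and 0 in positive spheroid cells, which made it at least 51.2-fold higher against a floor of 3 reads. Hand2, a factor of autonomic neurons, with 73.2 CPM in M2 neurospheres against 31.7 CPM in positive spheroid cells (log2 ratio 1.09) did not reach 4-fold.

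Receptor genes of neurotransmitters stood well above 0, with 5 of 10 measured higher and 0 lower (median 2.05, and 1.02 over all members with no filter on low values). Htr3a, the core subunit of the serotonin-gated channel, had 228 CPM in M2 neurospheres against 30.3 CPM in positive spheroid cells (log2 ratio 2.80), and its partner Htr3b had 5.82 CPM in M2 neurospheres against 0.743 CPM in positive spheroid cells (log2 ratio 2.81). The nicotinic acetylcholine receptor of autonomic and enteric neurons is built from the products of Chrna3, Chrnb4 and Chrna5, which lie side by side on chromosome 9. Chrna3 had 60.4 CPM in M2 neurospheres against 2.31 CPM in positive spheroid cells (log2 ratio 4.58). Chrnb4 had 21 CPM in M2 neurospheres against 1.05 CPM in positive spheroid cells (log2 ratio 4.17) and Chrna5 had 11.2 CPM in M2 neurospheres against 0.464 CPM in positive spheroid cells (log2 ratio 4.39). All 3 were among the 15 highest ratios of genes that reached 10 CPM in either library, while the nicotinic subunit genes Chrnb1 (log2 ratio -0.23), Chrna7 (log2 ratio 1.31) and Chrnb2 (log2 ratio 1.69) were not called. Chrna5 (GRCm38 chr9:54980827-55011420) and Chrna3 (chr9:55010117-55026562) overlap at one end, so reads there are uncertain because no source used here says whether counting used the strand. Gria2, a glutamate receptor subunit, had 10.1 CPM in M2 neurospheres against 0.464 CPM in positive spheroid cells (log2 ratio 4.24).

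Of 14 measured pan-neuronal genes, 4 were higher and 0 lower (median 1.25), and 10 had a log2 ratio above 0 and 4 below it. The summed level of this list was 3804 CPM in M2 neurospheres and 3985 CPM in positive spheroid cells. Elavl4, an RNA-binding protein of postmitotic neurons, had 125 CPM in M2 neurospheres against 11.5 CPM in positive spheroid cells (log2 ratio 3.32), and the synaptic vesicle calcium sensor Syt1 had 41.1 CPM in M2 neurospheres against 3.59 CPM in positive spheroid cells (log2 ratio 3.39). Elavl3 and Stmn3 were also higher, with 1.55 and 9.43 CPM in M2 neurospheres against 0.0619 and 0.139 CPM in positive spheroid cells. The axon growth gene Gap43 and the tubulin gene Tubb3 were not called, with 2917 and 303 CPM in M2 neurospheres against 3094 and 428 CPM in positive spheroid cells (log2 ratios -0.20 and -0.61). Uchl1 and Ncam1, of the same list, also lay below 0 and were not called (log2 ratios -0.71 and -1.19). Of the genes of transmitters and neuropeptides, 4 of 10 were higher and 1 lower (median 1.11). Gal, the neuropeptide galanin, had 328 CPM in M2 neurospheres against 61.6 CPM in positive spheroid cells (log2 ratio 2.30), and Npy, neuropeptide Y, had 46.2 CPM in M2 neurospheres against 5.22 CPM in positive spheroid cells (log2 ratio 3.03). Slc5a7, the choline transporter of cholinergic neurons, and Ddc, an enzyme of amine synthesis, were the others higher (log2 ratios 2.47 and 3.14). Slc5a7 had 8.65 CPM in M2 neurospheres, 1.42 CPM in positive spheroid cells and 66 CPM in tdTomato-negative cells. The cholinergic genes Chat and Slc18a3 had 2 reads each in M2 neurospheres, against 0 and 6 in positive spheroid cells. Th, also of amine synthesis, had 2 reads in M2 neurospheres and 0 in positive spheroid cells. Gad2, an enzyme of GABA synthesis, was lower with 0.827 CPM in M2 neurospheres against 18 CPM in positive spheroid cells (log2 ratio -4.50), and Vip was not called, with 7.72 CPM in M2 neurospheres against 8.71 CPM in positive spheroid cells (log2 ratio -0.29). All 5 chromogranin and secretogranin genes, cargo of dense-core vesicles and picked after their values were seen, were higher, among them Scg2 with 22.6 CPM in M2 neurospheres against 2.38 CPM in positive spheroid cells (log2 ratio 3.12) and Chga with 12 CPM in M2 neurospheres against 0.619 CPM in positive spheroid cells (log2 ratio 4.10).

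The other bowel libraries place these levels. Ret had 374 CPM in M1 neurospheres and 55.7 CPM in bowel primary cells, beside 274 CPM in M2 neurospheres. Chrna3 had 50.7 CPM in M1 neurospheres and 156 CPM in bowel primary cells, beside 60.4 CPM in M2 neurospheres. The library with the highest level differed between genes. Snap25, a protein of vesicle release, had 6.34 CPM in M2 neurospheres, 53.1 CPM in M1 neurospheres and 417 CPM in bowel primary cells, and Vip had 20.2 CPM in M1 neurospheres and 456 CPM in bowel primary cells. For the whole set of genes, 170 were higher (1.2% of 14141) and 1042 lower (7.37%) in M2 than in M1 neurospheres, and 1296 were higher (9.1% of 14245) and 447 lower (3.14%) in M1 neurospheres than in positive spheroid cells. These comparisons share libraries with the main one.

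**Figure D4:**
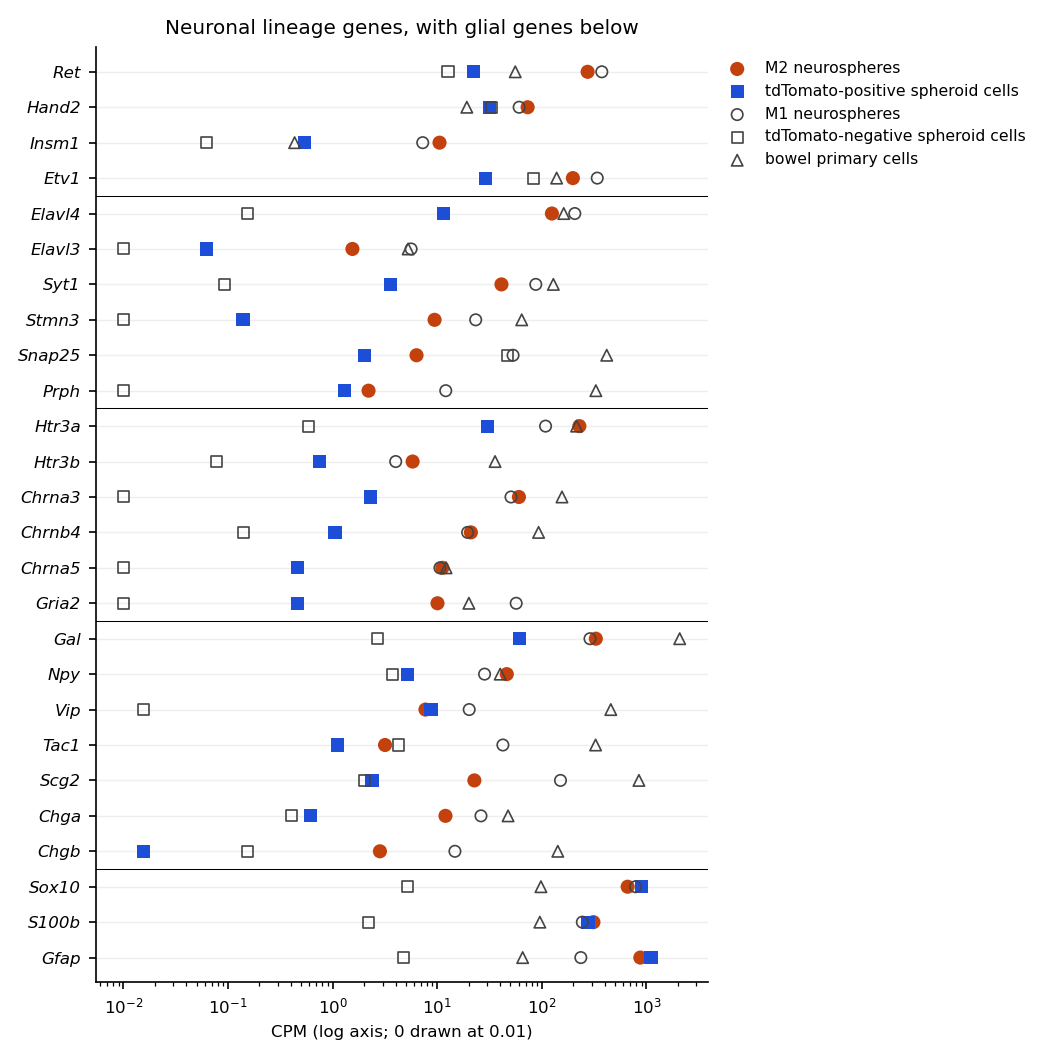
CPM on a log axis in the 5 bowel libraries of (top to bottom) progenitor and neurogenic genes, pan-neuronal genes, receptors, peptides with granins, and glial genes. The genes drawn are a selection from the lists and families. M2 neurospheres (filled circles) lie right of positive spheroid cells (filled squares) for all drawn genes above the lowest line except Vip. For Sox10 and Gfap they lie left, and for S100b slightly right. Genes with log2 ratios below 0 that are not drawn include Gap43, Tubb3, Uchl1, Ncam1 and Gad2.

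Among named genes that reached 10 CPM in either library, Grm5, a metabotropic glutamate receptor, had the highest ratio. Grm5 had 730 reads in M2 neurospheres and 1 read in positive spheroid cells (log2 ratio 7.85, interval 6.90 to 14.69). It had 0.328 CPM in M1 neurospheres and 0.104 CPM in bowel primary cells, against 11.2 CPM in M2 neurospheres. Camk1g, a calcium and calmodulin-dependent kinase, had 34.5 CPM in M2 neurospheres against 0.402 CPM in positive spheroid cells (log2 ratio 6.21), and Gjd2, the neuronal gap junction protein connexin 36, had 20.7 CPM in M2 neurospheres against 0.279 CPM in positive spheroid cells (log2 ratio 5.96). Bche, the enzyme butyrylcholinesterase, and Ramp1, a subunit of the receptor for calcitonin gene-related peptide, had 259 and 172 CPM in M2 neurospheres against 9.18 and 6.27 CPM in positive spheroid cells (log2 ratios 4.70 and 4.66). Others among the 15 highest ratios of genes that reached 10 CPM in either library were Gpr22 (log2 ratio 5.56), Sh3gl2 (log2 ratio 5.10), Cntn1 (log2 ratio 4.42), Tmem150c (log2 ratio 4.38), Bcan (log2 ratio 4.24) and Prokr1 (log2 ratio 4.23), of which Sh3gl2 and Cntn1 encode a synaptic endophilin and an axonal adhesion protein. Among called genes the largest gains in CPM were those of the membrane protein gene Itm2a, with 1767 CPM in M2 neurospheres against 209 CPM in positive spheroid cells (log2 ratio 2.97) and 3043 CPM in tdTomato-negative cells, and of the carbonic anhydrase Car12, with 737 CPM in M2 neurospheres against 153 CPM in positive spheroid cells (log2 ratio 2.16). Fibin and Aspa were also among the 10 largest such gains, with 319 and 306 CPM in M2 neurospheres against 67.2 and 65.1 CPM in positive spheroid cells (log2 ratios 2.13 and 2.12).

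Glial genes were not set apart from all genes by the rule. Of 15 glial genes 1 was higher and 0 lower, beside 3.07% and 3.86% of all genes (list median 0.06). The summed level of the glial list was 6700.4 CPM in M2 neurospheres and 6657 CPM in positive spheroid cells. Gfap had 874 CPM in M2 neurospheres and 1108 CPM in positive spheroid cells (log2 ratio -0.45). The higher member was the glutamate transporter Slc1a3, with 10.7 CPM in M2 neurospheres against 1.19 CPM in positive spheroid cells (log2 ratio 3.02). Fabp7 came near, with 64.7 CPM in M2 neurospheres against 15.2 CPM in positive spheroid cells (log2 ratio 1.97). It was called when scaled by library totals or DESeq2 size factors. Of the crest and progenitor genes 2 of 15, Ret among them, were higher and 0 lower (median -0.22), and Erbb3 (log2 ratio -0.56), Foxd3 (log2 ratio -0.54) and Gfra1, the coreceptor of Ret (log2 ratio -1.10), were not called. The endothelin receptor Ednrb had 147 CPM in M2 neurospheres against 44.4 CPM in positive spheroid cells (log2 ratio 1.62).

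The counts of this paragraph stand beside 3.07% higher and 3.86% lower of all genes. Among Schwann cell myelin genes 1 of 12 was higher and 2 lower (median 0.51). Pmp22, a myelin membrane protein, had 559 CPM in M2 neurospheres against 127 CPM in positive spheroid cells (log2 ratio 2.02), while Mag (log2 ratio -2.14) and the myelin regulator Egr2, which is also an immediate early gene (log2 ratio -3.69), were lower. Of the oligodendrocyte-lineage genes 2 of 9 were higher and 0 lower (median 0.96). They were Ugt8a, the enzyme of galactolipid synthesis, with 9.97 CPM in M2 neurospheres against 0.155 CPM in positive spheroid cells (log2 ratio 5.65), and Enpp6 with 2.73 CPM in M2 neurospheres against 0.371 CPM in positive spheroid cells (log2 ratio 2.67). Gpr17, a receptor of oligodendrocyte precursors, had 561 CPM in M2 neurospheres and 175 CPM in positive spheroid cells (log2 ratio 1.57) and did not reach 4-fold. Of these 9 oligodendrocyte-lineage genes, 5 had a log2 ratio above 0 and 4 below it, Myrf (log2 ratio -1.63) and Pdgfra (log2 ratio -1.45) included. At a filter of 5 CPM, 1 of 8 was higher and 0 lower (median 0.21). Hox genes, which record position along the body axis, were not called in any case. The 12 measured of groups 1 to 5 had a median of 0.06 and the 3 of groups 6 to 13 a median of -0.28.

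Cholesterol synthesis genes lay above 0 almost throughout, by less than 4-fold. None of the 24 was called, yet 23 had a log2 ratio above 0 (median 1.00), beside a median of -0.02 over all genes. With a rule of 2-fold and an interval beyond equality 11 of the 24 were higher and 0 lower, beside 8.13% higher and 11.6% lower of all genes. In 6 of the 24, among them Sqle and Dhcr7, all 3 neurosphere libraries lay above all 4 sorted ones, as they did in 4.28% of all genes, and the part of the sort in this difference was not tested. Idi1, an isomerase of the mevalonate pathway, had 110.3 CPM in M2 neurospheres against 30.2 CPM in positive spheroid cells (log2 ratio 1.76), Fdft1, the squalene synthase, had 330.3 CPM in M2 neurospheres against 124 CPM in positive spheroid cells (log2 ratio 1.30) and Hmgcs1, the synthase at its entry, had 520.2 CPM in M2 neurospheres against 186 CPM in positive spheroid cells (log2 ratio 1.37). Fatty acid and lipid droplet genes had a median of 0.67. Of 18, Scd1, a desaturase, was higher with 294 CPM in M2 neurospheres against 49.7 CPM in positive spheroid cells (log2 ratio 2.45), and Angptl4, an inhibitor of lipoprotein lipase, was lower with 34 CPM in M2 neurospheres against 234 CPM in positive spheroid cells (log2 ratio -2.89).

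Growth-related lists held no or few called genes, beside 3.07% higher and 3.86% lower of all genes. Lists of this size are not set apart from all genes by such counts. None of 28 cell cycle genes was called (median 0.39), and in 11 of them, Cdk1 and Pcna included, all 3 neurosphere libraries lay above the 4 sorted ones. The proliferation antigen Mki67 had 115 CPM in M2 neurospheres and 73.9 CPM in positive spheroid cells (log2 ratio 0.53), with Ccne2 the farthest from 0 (log2 ratio 1.59). Of 19 inhibitors of cyclin-dependent kinases and p53 targets, Cdkn1c, which encodes the inhibitor p57, was higher with 62.3 CPM in M2 neurospheres against 5.71 CPM in positive spheroid cells (log2 ratio 3.33; list median 0.13). All 16 cytosolic ribosomal protein genes had a ratio above 0 and below 2-fold (median 0.61), and processed copies of such genes can share reads. All 13 mitochondrially encoded genes were above 0 as well (median 0.94). ND3 was the 1 called, with 10.1 CPM in M2 neurospheres against 0.65 CPM in positive spheroid cells (log2 ratio 3.79), and ND1 had 2679 CPM in M2 neurospheres against 1002 CPM in positive spheroid cells (log2 ratio 1.31). None of 17 nuclear genes of oxidative phosphorylation was called (median 0.28). Of 22 hypoxia and glycolysis genes, Aldoc (log2 ratio 2.97) and Ankrd37 (log2 ratio 2.07) were higher and Car9 (log2 ratio -2.07, under 4-fold when scaled by library totals) lower (median 0.30). Of 21 amino acid and endoplasmic reticulum stress genes and of 15 antioxidant and metal response genes none was called (medians 0.05 and -0.23). Psat1, an enzyme of serine synthesis, came nearest, and passed 4-fold with each other scaling, with 269 CPM in M2 neurospheres against 62.6 CPM in positive spheroid cells (log2 ratio 1.99).

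Signalling genes of Notch, BMP and TGF-beta had medians below that of all genes. The counts of this paragraph stand beside 3.07% higher and 3.86% lower of all genes. Of 14 Notch genes, the ligand Dll3 was higher with 11.8 CPM in M2 neurospheres against 1.56 CPM in positive spheroid cells (log2 ratio 2.78). The target genes Hes1, a repressor of neurogenesis, with 34.4 CPM in M2 neurospheres against 239.9 CPM in positive spheroid cells (log2 ratio -2.91), and Hes5 (log2 ratio -3.84) were lower, and the other 11 were not called (median -0.71). Of 21 BMP and TGF-beta genes 6 were lower and 1 higher (median -0.98). The lower ones included the ligands Bmp2 (log2 ratio -2.87) and Inhba (log2 ratio -4.29), the BMP antagonist Grem1 (log2 ratio -3.81), the activin antagonist Fst (log2 ratio -2.11) and the TGF-beta target Tgfbi (log2 ratio -2.57), and the higher one was Bmp6 (log2 ratio 2.58). Of 16 Wnt genes 2 were higher and 4 lower (median -0.42). At a filter of 5 CPM, 1 of 10 Wnt genes was higher and 1 lower (median -0.07). At that filter 0 of 16 BMP and TGF-beta genes were higher and 6 lower. The receptor Fzd8 had 361 CPM in M2 neurospheres against 77.5 CPM in positive spheroid cells (log2 ratio 2.11), and Fzd9 was also higher (log2 ratio 2.93). The factor Lef1 (log2 ratio -2.27), the secreted Rspo3 (log2 ratio -3.52) and Dkk3 (log2 ratio -2.68) were lower, and the ligand Wnt4 had 2 reads in M2 neurospheres and 75 in positive spheroid cells (log2 ratio -4.36, interval -8.43 to -3.45). Grem1 and Dkk3 had 802 and 715 CPM in tdTomato-negative cells, above both compared libraries.

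Of 33 neurotrophic and growth factor genes 5 were higher and 4 lower (median -0.64). This count and those of the lists that follow stand beside 3.07% higher and 3.86% lower of all genes. Ntf3, the neurotrophin NT-3, had 9.62 CPM in M2 neurospheres against 0.263 CPM in positive spheroid cells (log2 ratio 4.93), and the receptor Fgfr3 had 4.9 CPM in M2 neurospheres against 0.0929 CPM in positive spheroid cells (log2 ratio 5.22). The ligands Fgf1 (log2 ratio 2.20), Areg (log2 ratio 2.45) and Kitl (log2 ratio 2.02) were higher too. Beside Pdgfb, the lower ones were the ligands Ereg (log2 ratio -3.57) and Igf1 (log2 ratio -2.04) and the receptor Egfr (log2 ratio -2.04), and Igf1 and Egfr were under 4-fold when scaled by library totals. Gdnf, the ligand of Ret, had 34.4 CPM in M2 neurospheres and 44.6 CPM in positive spheroid cells (log2 ratio -0.49). Of 14 feedback genes of FGF and EGF signalling, the growth factors of the medium, Spry4 was higher (log2 ratio 2.10) and Dusp5 (log2 ratio -3.20) and Phlda1 (log2 ratio -2.02, under 4-fold with library totals or DESeq2 size factors) lower (median -0.23). Axon guidance genes had 5 of 31 higher and 1 lower (median 0.21). The secreted semaphorin Sema3a had 134 CPM in M2 neurospheres against 12.8 CPM in positive spheroid cells (log2 ratio 3.27), with 18 CPM in M1 neurospheres. Sema3d (log2 ratio 2.96), Slit1 (log2 ratio 2.08), its receptor Robo1 (log2 ratio 2.12) and Ephb1 (log2 ratio 4.62) were higher and the plexin Plxna2 (log2 ratio -2.62) was lower. Of 28 basement membrane, laminin and integrin genes, Lama2 (log2 ratio 2.07) and the brain proteoglycan Bcan (log2 ratio 4.24) were higher, and the fibronectin receptor subunit Itga5 (log2 ratio -2.31), the laminin receptor subunit Itga7 (log2 ratio -2.19) and Spp1, or osteopontin (log2 ratio -2.65), were lower (median -0.50).

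**Figure D5:**
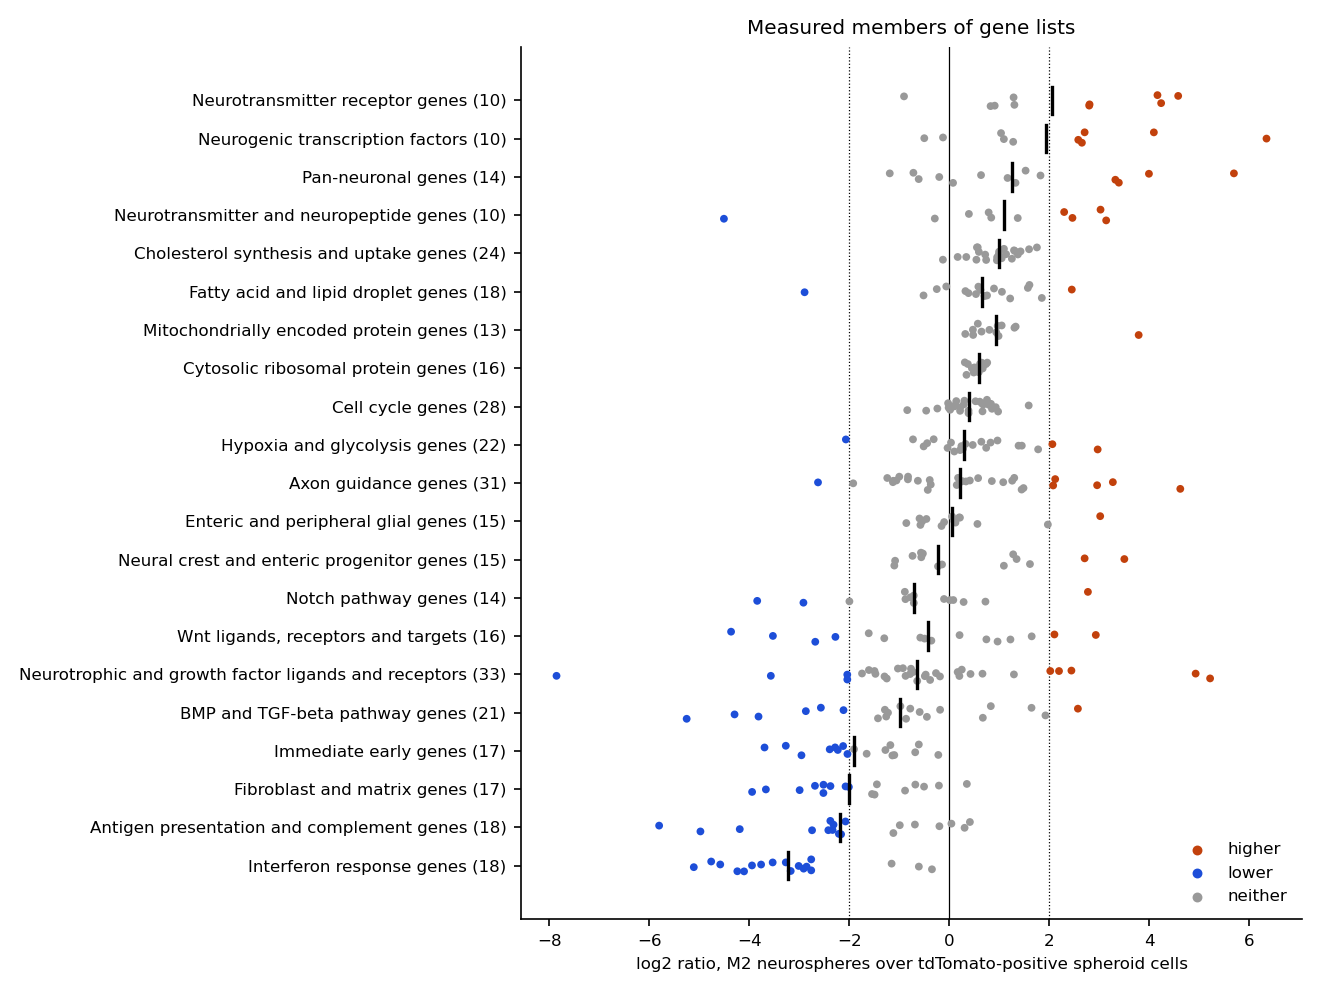
Log2 ratio of M2 neurospheres over positive spheroid cells for each measured member of 21 gene lists, with the number measured in brackets, the median as a bar and dotted lines at 4-fold. Medians run from 2.05 for neurotransmitter receptor genes to -3.22 for interferon response genes.

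Markers of other cell types, beside the fibroblast and matrix list above, gave these values. Their counts stand beside 3.07% higher and 3.86% lower of all genes. No mesothelial, lymphocyte, mast cell or erythroid gene reached 1 CPM. Macrophage genes summed to 66.1 CPM in M2 neurospheres and 60.8 CPM in positive spheroid cells, beside 5614 CPM in bowel primary cells, and none of the 11 measured was called (median -0.08, and 0.03 when scaled by library totals). Of 8 smooth muscle genes, Synpo2 (log2 ratio 2.48) and Hhip (log2 ratio 2.74) were higher and Actg2 (log2 ratio -2.20) and Mylk (log2 ratio -3.95) lower (median -0.38), with summed levels of 84.3 CPM in M2 neurospheres and 111 CPM in positive spheroid cells. Of 4 genes of interstitial cells of Cajal, Etv1 was higher and Ano1 (log2 ratio -3.52) and Thbs4 lower (median -1.63). The list summed to 201 CPM in M2 neurospheres and 64.6 CPM in positive spheroid cells, of which Etv1, also a gene of the neurogenic list, had 198 CPM in M2 neurospheres and 29 CPM in positive spheroid cells, and Kit, their defining receptor, had 1.1 CPM in M2 neurospheres and 0.851 CPM in positive spheroid cells. Of 5 endothelial genes Kdr (log2 ratio 2.11) and Egfl7 (log2 ratio 3.55) were higher and Esam (log2 ratio -3.24) lower, and Tie1, with 0 reads in M2 neurospheres and 69 in positive spheroid cells, was at least 25.1-fold lower (list median 0.21). Epithelial and acinar genes summed to 242 CPM in M2 neurospheres and 135 CPM in positive spheroid cells, of which Cela1, an elastase gene, had 239 CPM in M2 neurospheres and 131 CPM in positive spheroid cells. These genes (3 measured, median -0.62, and 0.76 at a filter of 5 CPM), adipocyte genes (3, median -0.82) and 1 skeletal muscle gene (-0.33) had no called member. Of 3 melanocyte genes, Tyrp1 was at least 32.1-fold lower with 0 reads in M2 neurospheres and 88 in positive spheroid cells (list median -0.98).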

How the data were processed

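The authors deposited CPM values, 1 for each Entrez gene and library, with 1 library per group. Per the submitters' processing notes, the tools were bcl2fastq 2.17, HISAT and featureCounts and the build was mm10. No source used here gives the versions of the last 2, the settings, the annotation or the use of strand. Per the labels' protocols, RNA was isolated with Trizol, and libraries came from SMART-Seq v4 amplification followed by Nextera XT. Because these reads carry no molecular identifiers and were amplified, they are not independent molecules, and intervals and floors cover counting error only. From those CPM values whole reads were recovered, with 100% of values within 0.05 of a whole read. Library totals lay between 51885106 and 65301500 reads. No residual degrees of freedom remain, so a count model of these reads has no test and no p-value is given.

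Symbols and coordinates are from RefSeq (GRCm38), for 25275 of 27179 identifiers; the other 1904 are printed nowhere. Reads were scaled by TMM (edgeR 4.0.16 in R 4.3.3) over the 7 libraries, and log2 ratios use a prior count of 2, which understates those of low genes. CPM printed beside genes are plain CPM. Relative to library totals, TMM moves all ratios by 0.11 on the log2 scale, and ratios are given after TMM. Intervals are 95% exact conditional binomial. A fold against 0 reads is a lower bound from a floor of 3 reads, and such genes, set at that bound, left every list median as it was. Named genes were the 15 highest and 15 lowest log2 ratios among called genes that reached 10 CPM in 1 of the 2 libraries (no pseudogenes or gene models without a name), the 10 largest CPM differences in each direction among called genes, and members of 44 lists (743 of 757 entries found). The members, lists and rules were chosen with earlier results of these data known; families said to be picked after their values were seen lie outside the rule. A few genes under this rule are left unreported, while counts and medians include them. Of the steps, the log2 ratio and size rule alone were tested on simulated reads, which held counting error but no variation between libraries. Alternatives were scaling by library totals, by DESeq2 1.42.0 size factors or by TMM over the 2 libraries, a prior count of 0.5, no filter or 5 CPM, and rules of 2-fold and 8-fold. Promoters were searched on both strands, also for the elements named CArG box and SRE-1. The CArG box was in 1 of 12 immediate early genes with a promoter entry, and SRE-1 in 1 of 16 cholesterol genes. The CArG box was in 2.69% of higher, 2.67% of lower and 1.50% of genes called in neither direction. For SRE-1 these shares were 1.68%, 2.08% and 1.34%. The software was matplotlib 3.10.9 for plots, with scipy 1.17.1, pandas 2.3.3 and numpy 2.4.6 under Python 3.11.15.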

Additional observations from a re-analysis of the deposited data

How the results depend on the processing

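The counts of 413 higher and 519 lower genes became 442 and 464 with library totals, 420 and 504 with DESeq2 size factors, 416 and 508 with TMM over the 2 libraries, and 417 and 526 with a prior count of 0.5. They were 228 and 286 with a filter at 5 CPM (11175 genes measured), 704 and 928 with no filter (20456 genes), 1092 and 1559 under the 2-fold rule and 169 and 209 under the 8-fold rule, as fewer or more genes can pass by construction. Counted over the 8984 genes no higher in tdTomato-negative than in tdTomato-positive spheroid cells, a choice made after seeing the data, they were 196 and 253. Of 600 named and listed genes, 154 were called. None changed sign while called, and with library totals 8 lost the call (Car9, Fosl1, Phlda1, Serping1, Egfr, Igf1, Col5a1 and Mfap4) and 3 gained it (Fabp7, Psat1 and Id2). With DESeq2 size factors Phlda1 and Col5a1 lost it and Fabp7 and Psat1 gained it, and with TMM over the 2 libraries Col5a1 lost it and Psat1 gained it. The macrophage median was 0.03 with library totals, against -0.08. The medians of the receptor list were 2.81 at 5 CPM and 1.02 with no filter, and those of neurogenic factors 1.28 and 1.07, since the members measured change. The endothelial median was 2.83 at 5 CPM and -0.51 with no filter, against 0.21, the epithelial and acinar median 0.76 at 5 CPM, against -0.62, and the oligodendrocyte median 0.21 in both cases, against 0.96. Without a filter the glial and group 1 to 5 Hox medians were -0.02. Axon guidance had -0.37 at 5 CPM. No paired analysis was possible because each group has 1 library, and for the same reason no replicate could be left out.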

Other observations

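Outside the lists, the gene of the aryl hydrocarbon receptor, a sensor of planar aromatic ligands, was examined with genes it is known to induce. These genes were picked after their values were seen. Of 7 found, 5 were measured, of which 3 were higher in M2 neurospheres and 0 lower. Cyp1a1 and Aldh3a1 did not reach 1 CPM in either compared library. Ahrr, the repressor of this receptor, had 206 CPM in M2 neurospheres against 35.3 CPM in positive spheroid cells (log2 ratio 2.44), with 47 CPM in M1 neurospheres and 0.936 CPM in bowel primary cells. Tiparp, a target that modifies proteins with ADP-ribose, had 285 CPM in M2 neurospheres against 53.7 CPM in positive spheroid cells (log2 ratio 2.30), and the cytochrome Cyp1b1 had 13.3 CPM in M2 neurospheres against 2.46 CPM in positive spheroid cells (log2 ratio 2.30). The receptor gene Ahr had 144 CPM in M2 neurospheres against 205 CPM in positive spheroid cells (log2 ratio -0.62) and Nqo1 had 12.5 CPM in M2 neurospheres against 5.25 CPM in positive spheroid cells (log2 ratio 1.13).

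Genes of potassium channels and their auxiliary proteins, also picked afterwards, had 14 of 46 members higher and 3 lower (median 0.37), beside 3.07% and 3.86% of all genes. The higher ones included Kcnt2 (log2 ratio 5.41), the M-current subunit Kcnq3 (log2 ratio 4.16), Kcnab1 (log2 ratio 3.72) and the calcium-activated channel Kcnn2, which had 25.2 CPM in M2 neurospheres against 4.29 CPM in positive spheroid cells (log2 ratio 2.44). Kcnt2, Kcnq3 and Kcnab1 had 4.87, 2.92 and 5.45 CPM in M2 neurospheres, and 5, 8 and 23 reads in positive spheroid cells. Kcna6 and Kcna2 were not called, with 794 and 136 CPM in M2 neurospheres against 513 and 121 CPM in positive spheroid cells. The family summed to 1351 CPM in M2 neurospheres and 989 CPM in positive spheroid cells. The lower ones, Kcne4, Kcnj8 and Kcnk10, had 174, 76.6 and 214 CPM in tdTomato-negative cells, above both compared libraries. The nuclear RNA Malat1 had 1222 CPM in M2 neurospheres against 4465 CPM in positive spheroid cells (log2 ratio -1.98), just short of 4-fold.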
